A study of Mus musculus with 3 samples.

Results

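The genes described here encode the enzymes that break proteins down in the lysosome for presentation on MHC class II, and one secreted inhibitor of them. They are Ifi30, the cathepsins Ctss, Ctsl, Ctsb, Ctsh, Ctsz and Ctsd, the endopeptidase gene Lgmn, and Cst3. They were chosen by name for this function, with earlier results of these data known. All 9 were found once each among the 32285 genes measured. The cells were dendritic cells grown in vitro with FLT3L, the growth factor of dendritic cell development, from wild-type C57BL/6 mice, and their mRNA was counted cell by cell in droplets, from the 3′ end (10x Genomics v3 kit). Each of the 3 groups is 1 library. The control cells were grown in 2 mM glutamine, a second culture in 50 µM glutamine, and a further one in 2 mM glutamine with 1 µM DON. DON is 6-diazo-5-oxo-L-norleucine, a glutamine analogue that inhibits enzymes using glutamine. All 3 groups were wild type and all received FLT3L, and the cells were cultured rather than taken from tissue.

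Dendritic cells take up protein into endosomes, which mature into acid lysosomes. There the thiol reductase GILT, the product of Ifi30, opens disulphide bonds, and proteases cut the unfolded chains and the invariant chain that guards the class II groove. Cystatin C, the product of Cst3, binds and blocks cysteine cathepsins, and in the mouse it is a well-known product of type 1 conventional dendritic cells (cDC1). These cells present antigen of dead cells to CD8 T cells, type 2 cells (cDC2) mainly prime CD4 T cells, and plasmacytoid cells (pDC) secrete type I interferon.

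Cells were assigned to types by UMIs of marker genes, none of which is among the 9 genes. A UMI is one counted mRNA molecule, and levels are given in CPM, the UMIs of a gene per 1000000 UMIs summed over the cells of a gate. The libraries held 87611658 to 92002827 UMIs, and 20 to 31 cell barcodes were shared between any pair of libraries. The cDC1 gate held 1320 control cells, 230 at 50 µM glutamine and 544 with DON. The cDC2 gate held 1188, 1103 and 809, the pDC gate 2342, 2284 and 2202, and the gate of mature dendritic cells (Ccr7, Fscn1) 417, 184 and 190, each in that order. A gate of cells positive for Cd7, Klf4 and Alox5, which also carried summed pDC markers of 1273 to 1675 CPM, held 683, 326 and 768 cells. It was added after the data were seen and after Ifi30 was seen among the leading genes of such cells, and it is called by those genes. Cells of the cDC2 gate or of no gate that passed its cut were placed in it. The cDC2 levels given here, those of Ifi30 among them, are without these cells. Monocytes or macrophages numbered 236, 284 and 302, progenitors 310, 821 and 271, and neutrophils 246, 276 and 247. Every gate marker of the dendritic cell, monocyte or macrophage, progenitor and neutrophil gates was detected in its own gate in each library. Of the cDC2 gate, 12.5 to 18.3% of cells lay at most 25% above the cut, and of the Cd7, Klf4 and Alox5 gate 22.7 to 28.2%. Cells with no gate (22.3 to 31.9%) or with several gates (5.14 to 5.77%) were left out of the comparisons.

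Ifi30 encodes GILT, which is induced by interferon gamma in many cells and is constitutive in antigen-presenting cells. The gene lies on chromosome 8 at 70762774 to 70766663, minus strand, in mm10 (GRCm38). In control it stood at 700.3 CPM in the Cd7, Klf4 and Alox5 gate (95% counting interval 677 to 724) and at 649 CPM in mature cells (619 to 679), intervals that overlapped. It was next highest in cDC2 at 407 CPM (394 to 420.5), with monocytes or macrophages at 217, pDC at 173 and cDC1 at 143 CPM. Neutrophil-gated cells had 55.7 CPM. At 50 µM glutamine mature cells were highest, at 725 CPM (676 to 776), and the Cd7, Klf4 and Alox5 gate stood at 332 CPM (308 to 356).

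The promoters of these genes were read from RefSeq (GRCm38.p6) over 250 bases before the start of transcription. Promoters of 7 of the 9 genes matched, all but Ctsb and Ctsh. The letters CACGTG, the core of the site bound by TFEB and its relatives, occur on either strand in 6.02% of 32851 promoters, and the longer TCACGTGA, which contains it, in 0.785%. CACGTG was found once before Ifi30, Ctsl and 1 of the 2 listed starts of Lgmn, and at 2 places before Ctsd. The promoters of Ifi30 and Ctsd held TCACGTGA, 197 to 190 bases and 99 to 92 bases before their RefSeq starts. The RefSeq start of Ctsd lies inside the gene as GENCODE places it, so the stretch shown for Ctsd is within the gene position given below. The letters GAAA repeated after a gap of any 2 bases, a form of the interferon-stimulated element, occur on either strand in 2.98% of promoters and were found before Ctss, 21 to 12 bases from its start. The letters TTCNNNGAA, a form of the STAT site, occur in 7.02% and were found in none of the 7. The stretches around the longer matches are shown because Ifi30 and Ctsd are set beside each other in the comparisons below, and because Ctss carried the only match of its kind. Capitals mark the match, and each stretch reads 5′ to 3′ on the strand of its gene. They lie at chr8:70766817-70766896 (minus strand), chr7:142387908-142387937 (minus strand) and chr3:95526729-95526785 (plus strand). A match of letters is not evidence of binding.
Ifi30: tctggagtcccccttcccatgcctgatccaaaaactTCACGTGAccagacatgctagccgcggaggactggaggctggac
Ctsd: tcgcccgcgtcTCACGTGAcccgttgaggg
Ctss: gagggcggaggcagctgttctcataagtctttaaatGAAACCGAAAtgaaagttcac

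Ctss encodes cathepsin S, the main protease that trims the invariant chain in dendritic cells (chromosome 3, 95526786 to 95556403, plus strand). Its control levels were 1971 CPM in monocytes or macrophages, 880.2 in the Cd7, Klf4 and Alox5 gate, 693 in cDC2, 599 in pDC, 494 in mature cells and 299.6 in cDC1. Neutrophils, at 90.2 CPM, and progenitors, at 138 CPM, were the lowest of the larger gates.

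Ctsl encodes cathepsin L, a broad endopeptidase that takes the place of cathepsin S in some other cell types (chromosome 13, 64359337 to 64370890, minus strand). It stood at 2199 CPM in control pDC (2174 to 2224) and at 953 CPM in monocytes or macrophages. In cDC1 it was 24.0 CPM, in cDC2 25.8 CPM, and in mature cells 34.7 CPM. The Cd7, Klf4 and Alox5 gate lay between, at 181 CPM in control, 179 at 50 µM and 174 with DON.

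Ctsb encodes cathepsin B, an endopeptidase that also trims peptides from the carboxyl end (chromosome 14, 63122462 to 63145923, plus strand). In control it stood at 3975 CPM in monocytes or macrophages and at 969.7 CPM in pDC. In the other dendritic gates it ranged from 119.8 CPM in cDC1 to 280.2 CPM in the Cd7, Klf4 and Alox5 gate. Ctsh encodes cathepsin H, an aminopeptidase (chromosome 9, 90054152 to 90076089, plus strand). Its control levels were 779 CPM in pDC, 667 in the Cd7, Klf4 and Alox5 gate, 563 in mature cells, 532 in cDC2 and 159 in cDC1. Ctsz encodes cathepsin Z, a carboxypeptidase (chromosome 2, 174427493 to 174439039, minus strand). Over the dendritic gates its control levels ran from 279.8 CPM in cDC1 to 549 CPM in pDC.

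Lgmn encodes legumain, which cuts after asparagine and activates cathepsins (chromosome 12, 102394084 to 102439813, minus strand). In control it stood at 926 CPM in monocytes or macrophages, 177 in mature cells, 139 in the Cd7, Klf4 and Alox5 gate, 72.9 in cDC2, 75.0 in pDC and 41.8 in cDC1. The intervals of cDC2 and pDC overlapped. Ctsd encodes cathepsin D, the aspartic protease of the set, which cystatin C does not block (chromosome 7, 142375911 to 142388038, minus strand). Outside the dendritic lineage it was high in monocytes or macrophages (1757 CPM), in basophils or mast cells (1165 CPM over 72 cells) and in neutrophils (805 CPM). Among dendritic gates it was 109 CPM in pDC, 47.2 in cDC2, 18.4 in mature cells and 15.5 in cDC1.

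Cst3 (chromosome 2, 148871722 to 148875692, minus strand) was higher in cDC1 than in cDC2, where all 8 other genes had the lower level in cDC1 in control. Control cDC1 had 21223 CPM (21149 to 21298), mature cells 12637, cDC2 10899 and the Cd7, Klf4 and Alox5 gate 4928 CPM. Monocytes or macrophages had 3357 CPM and pDC 1435 CPM. Neutrophils had 971 CPM, and after thinning each cell to 2000 UMIs 66.9% of 151 neutrophils carried a Cst3 UMI against 99.9% of cDC1. How much of such low levels is free RNA of other cells was not tested.

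**Figure D1:**
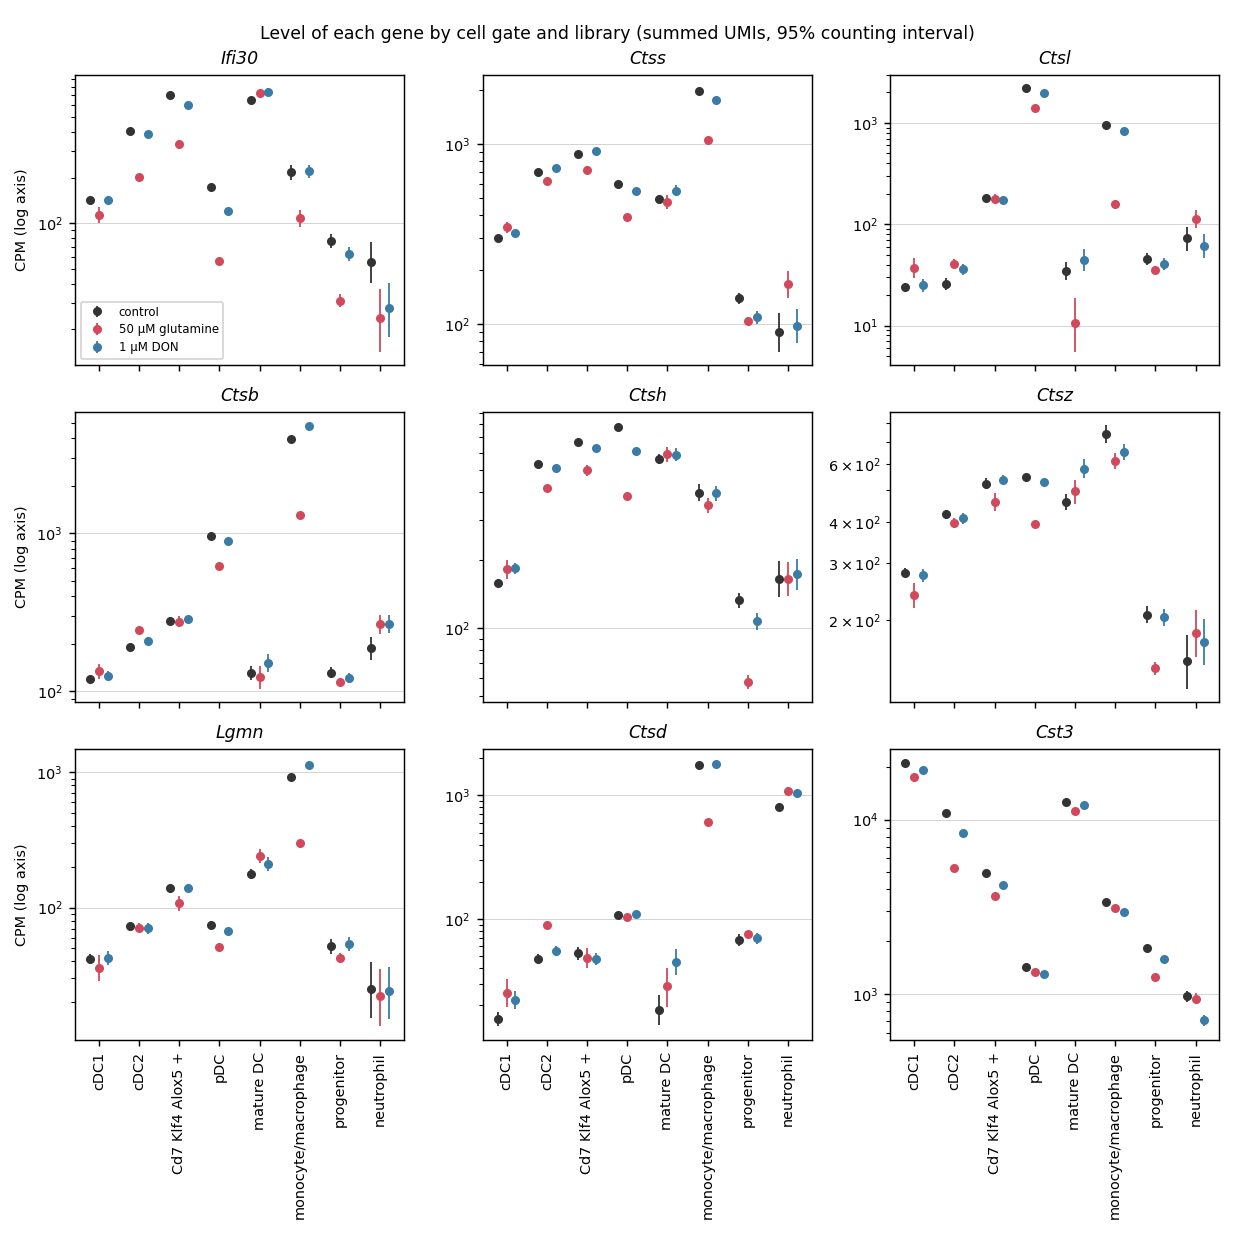
Level of each of the 9 genes in 8 cell gates, in CPM on a log axis, with 1 point per library and 95% counting intervals. Ctsl stands highest in pDC, Ctsb, Ctss, Ctsz and Lgmn in monocytes or macrophages, and Cst3 in cDC1, and Ctsd is highest in monocytes or macrophages except at 50 µM, where neutrophils are higher (1085 against 607 CPM), while the 50 µM points of Ifi30 lie below the other libraries in most gates.

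The levels of 2 gates were then compared over the 3 libraries with edgeR's quasi-likelihood test on summed UMIs, with the library as a block and Benjamini-Hochberg adjustment over all genes tested. Since the libraries differ in treatment, the spread between them includes the treatment. The cDC2 gate lacks the cells moved to the Cd7, Klf4 and Alox5 gate, a step taken with their Ifi30 known. Comparisons of Ifi30 that involve cDC2 are therefore not independent of that step, and their p-values for Ifi30 are no support. In cDC1 against cDC2, 7 of the 9 genes were lower in cDC1, where 17% of 10742 genes were called lower, and 1, Cst3, was higher, where 17.2% were called higher. Cst3 averaged 19312 ± 1862 CPM in cDC1 and 8212 ± 2802 CPM in cDC2 (SD, n = 3), a log2 fold of 1.33 (SE 0.14, edgeR adjusted p = 0.00013), and was higher in 3 of 3 libraries. Ctsd averaged 21.0 ± 5.07 CPM in cDC1 and 63.9 ± 22.2 CPM in cDC2 (log2 fold -1.52, SE 0.09, edgeR adjusted p = 6.3e-06). Ctsh had a log2 fold of -1.44 and Ifi30 of -1.26 (edgeR adjusted p = 1.7e-05 and 0.0001). Ctss, Lgmn, Ctsb and Ctsz lay between -1.05 and -0.59, each lower in 3 of 3 libraries. Ctsl was not called (log2 fold -0.22, edgeR adjusted p = 0.16).

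In cDC1 against pDC, 7 genes were again lower in cDC1 and Cst3 was higher, where 25.5% and 22.4% of 11651 genes were called lower and higher. Ctsl averaged 28.7 ± 7.42 CPM in cDC1 and 1855 ± 409 CPM in pDC (SD, n = 3), a log2 fold of -5.91 (SE 0.26, edgeR adjusted p = 8.7e-06). Ctsb followed at -2.52 and Ctsd at -2.24, and Cst3 was higher by 4.01 on the log2 scale. Ifi30 was not called (log2 fold 0.47, edgeR adjusted p = 0.12), and its 3 pDC libraries, at 56.4, 121 and 173 CPM, spanned those of cDC1. The calls of Ctss (edgeR adjusted p = 0.044) and Lgmn (0.0053) were lost without the control library, without the DON library, without the block and with a stricter gate, that of Ctss also under DESeq2, with adjusted p up to 0.27 and 0.23 over 9 alternatives. The range for Ctss over the libraries was 299.6 to 344 CPM in cDC1 and 391 to 599 CPM in pDC.

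In cDC2 against pDC the genes divided. Ifi30, Ctss, Lgmn and Cst3 were higher in cDC2, 4 of 9 where 24.1% of 11494 genes were called higher. Ctsl, Ctsb and Ctsd were lower, 3 of 9 where 26.4% were called lower. Ifi30 averaged 333 ± 113 CPM in cDC2 and 117 ± 58.2 CPM in pDC (log2 fold 1.73, SE 0.11, edgeR adjusted p = 1.3e-05, higher in 3 of 3 libraries). Ctsl had a log2 fold of -5.60 and Ctsb of -1.78. Ctsh and Ctsz were not called (edgeR adjusted p = 0.57 and 0.37). Without the 50 µM library both were called lower in cDC2, so that 5 genes were lower. Lgmn was higher in 2 of 3 libraries, and its call was lost without the DON library, without the block, under DESeq2 and when scaled to total UMIs (adjusted p up to 0.24 over 9 alternatives). The call of Ctss was lost without the block (adjusted p = 0.071), and that of Ctsd without the DON library and with a stricter gate.

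Mature cells, which have largely stopped taking up antigen and carry their peptides to T cells, were set against cDC2. Ifi30, Ctsh, Ctsz, Lgmn and Cst3 were higher in mature cells, 5 of 9 where 28.2% of 10485 genes were called higher. Lgmn averaged 210 ± 31.9 CPM in mature cells and 71.4 ± 1.39 CPM in cDC2 (SD, n = 3), a log2 fold of 1.93 (SE 0.12, edgeR adjusted p = 1.1e-06). Ifi30 averaged 704 ± 48.8 CPM against 333 ± 113 CPM (log2 fold 1.52, SE 0.20, edgeR adjusted p = 0.00014). The cDC2 mean of Ifi30 leaves out the cells moved to the Cd7, Klf4 and Alox5 gate. Ctsd was the 1 gene called lower, where 27.8% were called lower (log2 fold -0.67, edgeR adjusted p = 0.030), and this call was lost without the control or the 50 µM library, without the block, with a stricter gate and under DESeq2 (adjusted p up to 0.46 over 9 alternatives). The scaling of edgeR (TMM) raised every log2 fold of this comparison by 0.39 over the ratio of CPM. When scaled to total UMIs the 5 higher genes were still called, at 1.13 for Ifi30 and 1.54 for Lgmn, and Ctss and Ctsb were called lower as well (edgeR adjusted p = 0.00069 and 0.00088). The corresponding shift was 0.19 for cDC1 over pDC, 0.15 for cDC2 over pDC, 0.04 for cDC1 over cDC2 and -0.12 for the next comparison.

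Monocytes or macrophages had 6 genes higher than cDC2, where 17.7% of 10473 genes were called higher, and Ifi30, Ctsh and Cst3 lower, where 12.4% were called lower. The largest difference was that of Ctsd, with 1383 ± 672 CPM in monocytes or macrophages and 63.9 ± 22.2 CPM in cDC2 (log2 fold 4.22, SE 0.33, edgeR adjusted p = 1e-07). Ctsl had a log2 fold of 3.83, Ctsb of 3.66 and Lgmn of 3.15, each higher in 3 of 3 libraries. Ifi30 averaged 182 ± 63.9 CPM against 333 ± 113 CPM (log2 fold -1.0, SE 0.12, edgeR adjusted p = 7e-06). The call of Ctsh was lost without the control or the DON library (adjusted p up to 0.17).

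**Figure D2:**
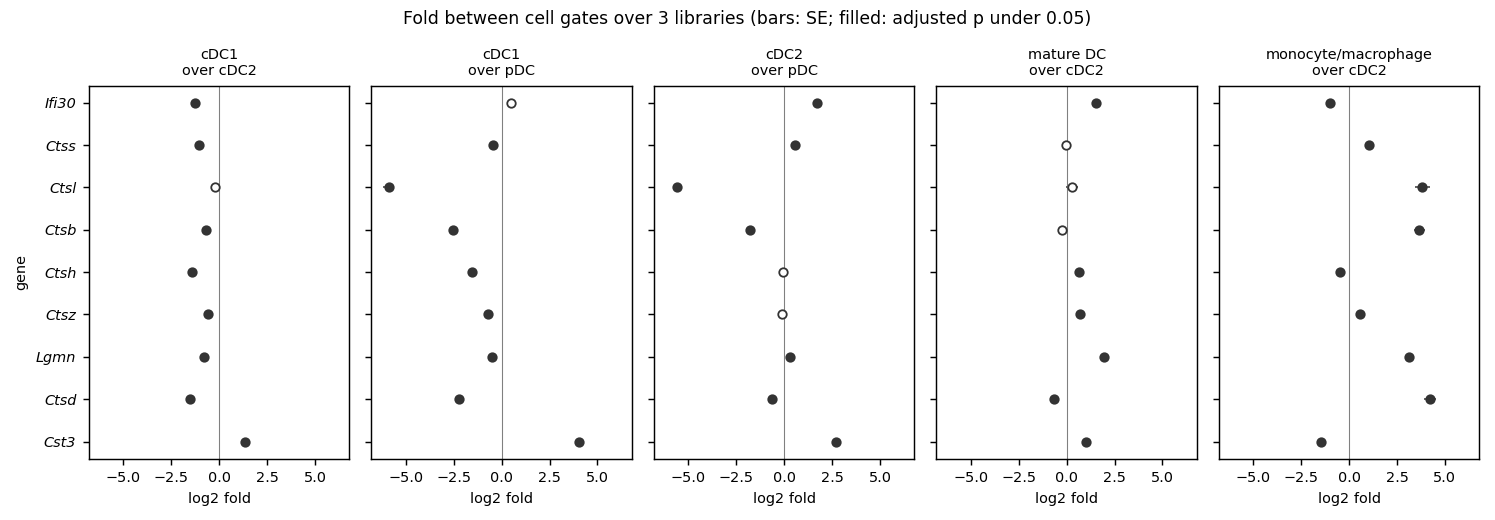
log2 fold of each gene in 5 comparisons of cell gates over 3 libraries, with the SE as bars; filled points have an edgeR adjusted p under 0.05. In cDC1 the points lie left of 0 against both cDC2 and pDC for 7 genes, with Cst3 on the other side at 1.33 and 4.01.

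The study varied glutamine, and each treated library was therefore compared with control within a gate. With 1 library per group there is no replicate and no test, so differences are described as log2 ratios of CPM with 5 CPM added. A gene was counted as lower or higher when it was at least 1.5 times apart, among genes of at least 20 CPM in either library. All 9 genes reached that minimum in the 7 gates compared here. Ctsd did so in cDC1 and in mature cells only through the treated library, and Ctsl in mature cells at 50 µM only through control. Intervals cover counting error only, and the comparisons of 50 µM and of DON share the control library. At 50 µM glutamine 17 of 63 pairs of gene and gate were lower and 1 higher. Of all genes, 1.26 to 8.09% were lower and 1.95 to 9.62% higher, depending on the gate. With DON no pair was lower and 1 was higher, beside 0.218 to 2.33% and 0.0533 to 3.47% of all genes. The pairs are the same 9 genes in gates of the same libraries and are not separate observations. Of the 17, 5 were in pDC and 6 in monocytes or macrophages. The median log2 ratio of the 9 genes at 50 µM was lowest in monocytes or macrophages, at -0.97 beside 0.01 for all genes there, and in pDC. It was -0.40 beside 0.05 in progenitors, -0.30 beside 0.14 in the Cd7, Klf4 and Alox5 gate and -0.09 beside 0.15 in cDC2. In cDC1 it was 0.15 beside 0.08 and in mature cells 0.07 beside 0.04. With DON the medians of the 9 genes ran from -0.13 in pDC and progenitors to 0.21 in mature cells.

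In cDC2 at 50 µM, 2 genes were lower, where 1.73% of 5888 genes were, and 1 was higher, where 5.94% were. Ifi30 was 407 CPM in control, 203 CPM at 50 µM (193 to 213) and 388 CPM with DON (374 to 403), log2 ratios of -0.99 and -0.07. Cst3 was 10899 CPM in control, 5307 at 50 µM (5258 to 5358) and 8429 with DON (8361 to 8496), log2 ratios of -1.04 and -0.37. Ctsd was the gene that was higher, at 47.2 CPM in control, 89.1 at 50 µM and 55.3 with DON, log2 ratios of 0.85 and 0.21. Thus for Ifi30 and Ctsd the 50 µM library stood apart from both others. For Cst3 the DON level lay between control and 50 µM, and its interval overlapped neither. These 3 genes were singled out by the limit at 50 µM. Cells with a UMI of Cd209a, a marker of part of cDC2, made up 47.9% of the control gate, 33.1% at 50 µM and 39.8% with DON. Within cells with that UMI the 50 µM ratios were -0.67 for Ifi30, -0.96 for Cst3 and 0.48 for Ctsd, below 1.5 times for the last. Without it they were -1.17, -1.0 and 0.75. The 10 summed pDC markers, of which Klk1 was at 0, were 236 CPM in this gate in control, 411 at 50 µM and 276 with DON, and the 11 monocyte or macrophage markers, none at 0, 482, 684 and 549 CPM. Their part in the results was not tested. The cDC1 gate, where Cst3 was highest, made up 13.6% of control cells and 2.496% at 50 µM. How much of the Cst3 in cDC2 is free RNA of other cells was not tested either.

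In cDC1 none of the 9 genes was lower at 50 µM, where 1.26% of 5698 genes were, and none was higher, where 3.84% were. Ifi30 was 143 CPM in control, 114 at 50 µM (100.1 to 128) and 143 with DON. Cst3 was 21223, 17503 and 19211 CPM in that order, log2 ratios of -0.28 and -0.14. Ctsd, at 15.5, 25.4 and 22.2 CPM, and Ctsl, at 24.0, 37.3 and 24.9 CPM, were close to the limit at 50 µM, with log2 ratios of 0.57 and 0.54. Both passed it with 1 CPM added in place of 5, and under a stricter gate Ctsd was lower instead, at -0.98. The log2 ratio of Ifi30 at 50 µM was thus -0.99 in cDC2 and -0.32 in cDC1, a difference that could not be tested.

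In pDC all 9 ratios were below 0 at 50 µM, with a median of -0.61 beside 0.15 for all genes. Counted as lower were 5 genes, where 3.33% of 6276 genes were, and none was higher, where 9.62% were. Ifi30 was 173 CPM in control (166 to 179.7), 56.4 CPM at 50 µM (52.8 to 60.2) and 121 CPM with DON (116 to 127), log2 ratios of -1.53 and -0.49. Ctsh was 779, 384 and 609 CPM, log2 ratios of -1.01 and -0.35. Ctsl, Ctsb and Ctss had 50 µM ratios of -0.65, -0.64 and -0.61, just past the limit. Cycling cells, with UMIs of at least 3 cycling genes, made up 12.6% of pDC in control, 40.2% at 50 µM and 23.8% with DON. Without them Ifi30 stood at -1.58 and Ctsh at -0.68, whereas Ctsl, Ctsb and Ctss were at -0.38, -0.28 and -0.19 and no longer counted. These 3 genes also fell short when pDC were gated more strictly, when each cell was thinned to 2000 UMIs and when cells were weighted equally, which left 2 genes in each case. With median-of-ratios scaling Ctsz and Lgmn were lower as well, 7 genes in all. Cst3 and Ctsd were near control in pDC, with log2 ratios of -0.10 and -0.06.

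In the Cd7, Klf4 and Alox5 gate Ifi30 was the 1 gene lower at 50 µM, where 1.62% of 6045 genes were, and none was higher, where 8.3% were. It was 700.3 CPM in control, 332 at 50 µM and 604 with DON, log2 ratios of -1.07 and -0.21. Cst3 and Ctsh, at -0.44 and -0.41, did not reach the limit. In progenitors 2 genes were lower at 50 µM, where 1.8% of 5792 genes were, and none higher, where 1.95% were. These were Ifi30, at 76.4, 30.9 and 63.1 CPM in control, 50 µM and DON, and Ctsh, at 133, 57.8 and 107 CPM. The gate was mostly of cycling cells, 76.8% in control, 85.6% at 50 µM and 90.8% with DON. Without these cells 5 genes were lower at 50 µM.

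In mature cells Ifi30 was 649 CPM in control (619 to 679), 725 at 50 µM (676 to 776) and 739.8 with DON, log2 ratios of 0.16 and 0.19. The control and 50 µM intervals overlapped. In every other dendritic gate the 50 µM ratio of Ifi30 was below 0, though within 1.5 times of control in cDC1 (-0.32). A difference between gates could not be tested. Ctsl was the 1 gene lower at 50 µM, where 5.2% of 5039 genes were, at 34.7 CPM in control (28.2 to 42.3), 10.7 at 50 µM (5.53 to 18.7) and 44.5 with DON. In that comparison Ctsl reached the minimum of 20 CPM only through control, where it was high, and had 12 UMIs at 50 µM, so its count supports nothing. None was higher, where 7.05% were. Lgmn was 177, 241 and 211 CPM, within 1.5 times of control. With DON the 1 higher gene was Ctsd, where 2.07% of 4934 genes were higher, at 18.4 CPM in control (13.8 to 24.2) and 45.2 with DON (34.9 to 57.7). These are 52 and 65 UMIs, and the gene reached the minimum of 20 CPM only through the DON library, where it was high, so the count supports nothing. None was lower, where 2.33% were.

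With DON no gene of the set was lower or higher in the remaining 6 gates. The shares of all genes that were lower and higher there were 0.934% and 0.531% in cDC1, 0.218% and 0.273% in cDC2, and 0.266% and 0.336% in the Cd7, Klf4 and Alox5 gate. They were 0.736% and 2.19% in pDC, 2.07% and 3.47% in monocytes or macrophages, and 0.551% and 0.0533% in progenitors. Few genes of any kind passed the limit with DON, so the absence of these 9 is near the background. The log2 ratio of Cst3 with DON ran over the 7 gates from -0.37 in cDC2 to -0.05 in mature cells, within 1.5 times of control. The gates share the same control and DON libraries, so these ratios are not separate observations. The part of free Cst3 RNA in them was not tested.

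**Figure D3:**
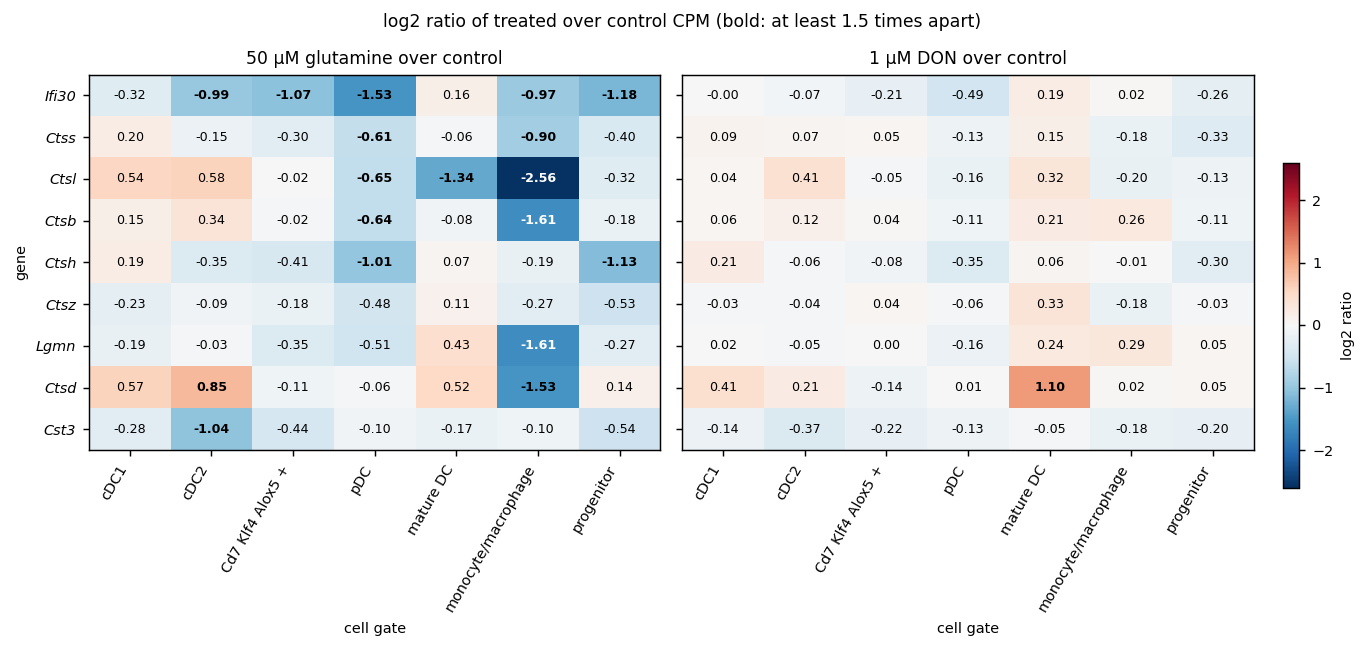
log2 ratio of treated over control CPM for each gene (rows) and cell gate (columns), at 50 µM glutamine and with DON, with bold values at least 1.5 times apart. At 50 µM Ifi30 is at least 1.5 times lower in 5 of 7 gates, and with DON 1 value, that of Ctsd in mature cells at 1.10, passes the limit.

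In monocytes or macrophages 6 genes were lower at 50 µM, where 8.09% of 6417 genes were, and none higher, where 5.24% were. Ctsl was 953 CPM in control, 157 at 50 µM (140.5 to 175) and 828 with DON, a log2 ratio of -2.56 at 50 µM. Ctsb was 3975, 1300.5 and 4754 CPM, Ctsd 1757, 607 and 1784 CPM, and Lgmn 926, 299.7 and 1136 CPM. Their log2 ratios at 50 µM were -1.61, -1.53 and -1.61. Ifi30 and Ctss were lower as well, at -0.97 and -0.90.

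The make-up of this gate moved with the treatment. Cells with a UMI of C1qa, C1qb or C1qc, the complement genes of macrophages, were 164 of 236 in control (69.5%, exact binomial 95% interval 63.2 to 75.3%), 98 of 284 at 50 µM (34.5%, 29.0 to 40.4%) and 199 of 302 with DON (65.9%, 60.2 to 71.2%). The split by C1q was chosen after the data were seen. In control, cells with such a UMI had far more Ctsb, 6693 CPM against 468 CPM in cells without, and also more Ctsl, Ctsd, Lgmn and Ctss. Ctsz differed less, at 849 against 604 CPM. Cells with the UMI had less Ifi30 (133 against 326 CPM), Ctsh (338 against 477 CPM) and Cst3 (2524 against 4432 CPM). Within the cells with a C1q UMI all 6 genes stayed lower at 50 µM, with log2 ratios of -1.65 for Ctsl, -0.85 for Lgmn, -0.80 for Ctsb, -0.77 for Ctss, -0.72 for Ifi30 and -0.68 for Ctsd. Within the cells without one, Ctsl, at -1.24, and Ifi30, at -1.43, were lower, while Ctsb, Lgmn, Ctss and Ctsd were at 0.0047, -0.10, -0.13 and -0.21. Ifi30 was there 326 CPM in control, 118 at 50 µM and 306 with DON. Ctsl was there 107 CPM in control (82.7 to 137), 42.5 at 50 µM (32.8 to 54.0) and 53.7 with DON (40.0 to 70.6). With DON Ctsl was thus lower too, at a log2 ratio of -0.94, and its 50 µM and DON intervals overlapped. These levels rest on 64, 66 and 51 UMIs.

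**Figure D4:**
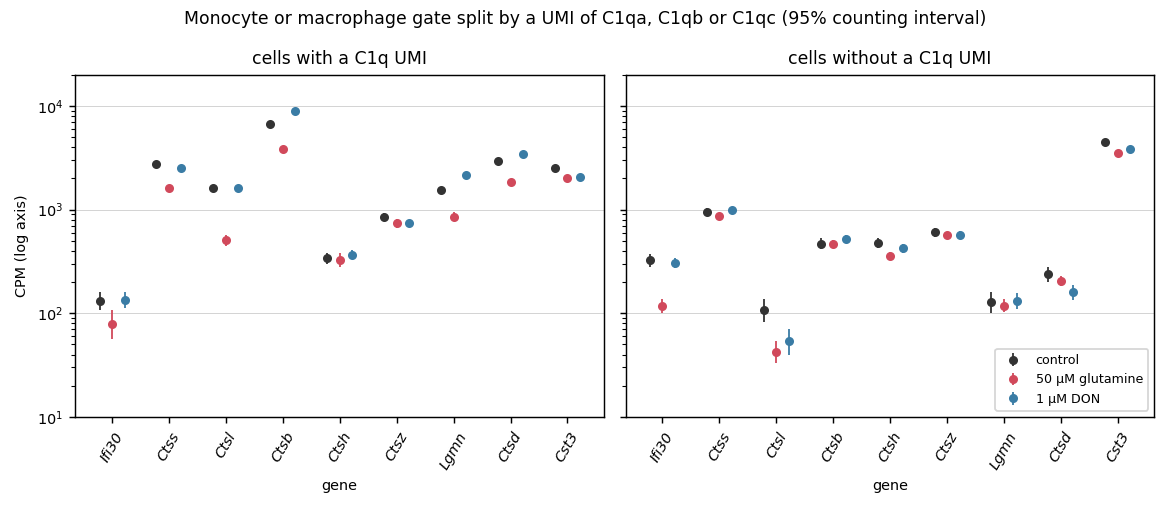
Levels of the 9 genes in the monocyte or macrophage gate, in CPM on a log axis with 95% counting intervals, for cells with and without a C1q UMI, 1 point per library. In cells with a C1q UMI the 50 µM points of Ctsl, Ctsb, Lgmn, Ctss, Ifi30 and Ctsd lie at least 1.5 times below control, and in cells without one those of Ctsl and Ifi30 do, with smaller differences for the other genes.

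The remaining gates were read the same way. In neutrophils Ctss and Ctsl were higher at 50 µM, 2 of 9 where 15.7% of 5060 genes were, and Ifi30 was lower, where 3.85% were. Ctss was there 90.2 CPM in control (70.0 to 114), 166 at 50 µM (139 to 197) and 97.6 with DON. With DON Ifi30 was lower in neutrophils, where 6.05% of genes were, and none was higher, where 5.37% were. Its levels of 55.7, 23.6 and 27.4 CPM have intervals of 40.1 to 75.3, 14.2 to 36.9 and 17.8 to 40.5 CPM, of which the last 2 overlapped. In the B lineage gate of 116, 227 and 132 cells none was lower or higher at 50 µM, where 9.38% and 15.2% were. With DON Cst3, Ifi30 and Ctsz were lower there, 3 of 9 where 14.6% were, and none was higher, where 9.12% were. Cst3 was 898.7 CPM in control, 1143 at 50 µM and 381 with DON in that gate. Its median depth was 1932.5 UMIs in control, 1743 at 50 µM and 4047.5 with DON. The part of depth and of free RNA in these values was not tested.

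Cells that entered no gate numbered 2158 in control, 2936 at 50 µM and 2474 with DON, and 48.6%, 64.0% and 59.5% of them were cycling. Ifi30 was 278 CPM in these cells in control, 67.2 at 50 µM (64.4 to 70.1) and 229 with DON, and Cst3 6878, 2988 and 5675 CPM. At 50 µM 6 of the 9 genes were lower, where 3.78% of 6081 genes were, and none was higher, where 3.12% were. With DON none was lower, where 0.467% were, or higher, where 0.138% were. The types of these cells are not known, so another mixture of cells and another level per cell cannot be told apart.

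The share of cells with a UMI was compared after each cell was thinned to 2000 UMIs, since depth differed between gates and libraries. In control 46.0% of cDC2 had an Ifi30 UMI (exact binomial 95% interval 43.2 to 48.9%, 1177 cells), at 50 µM 27.6% (25 to 30.4%, 1089 cells) and with DON 47.3% (43.8 to 50.8%, 807 cells). Unthinned the shares were 77.4%, 53.3% and 77.4%. In pDC the thinned shares were 23.8% (22.1 to 25.6%), 9.09% (7.94 to 10.3%) and 18.3% (16.7 to 19.9%), and in the Cd7, Klf4 and Alox5 gate 64.4%, 38.3% and 59.9%. In mature cells they were 56.5%, 62.1% and 57.4%, with overlapping intervals, and in cDC1 23.9%, 20.4% and 18.8%. Neutrophils, taken as cells with little Ifi30, had 4.64%, 3.05% and 3.26% at the same depth. Thinning left out 11, 14 and 2 cDC2 and 95, 112 and 63 neutrophils. Unthinned, the median depth in control was 6909.5 UMIs in cDC2 and 2441 in neutrophils.

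Ctsh UMIs were found in 77.2% of thinned pDC in control (75.4 to 78.8%), 52.0% at 50 µM (49.9 to 54.1%) and 68.2% with DON (66.2 to 70.1%). In cDC1 the shares were 27.3%, 28.7% and 30.1%, with overlapping intervals. Ctsl UMIs were found in 93.8%, 83.8% and 91.0% of pDC, in 4.40% of control cDC1 and in 4.08% of control cDC2. The control share in neutrophils was 11.3% (6.70 to 17.4%), above those of cDC1 and cDC2. Neutrophils had 72.9 CPM of Ctsl in control, more than cDC1 or cDC2, so they give no background for this gene. In monocytes or macrophages the Ctsl shares were 56.6%, 15.5% and 52.0%.

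**Figure D5:**
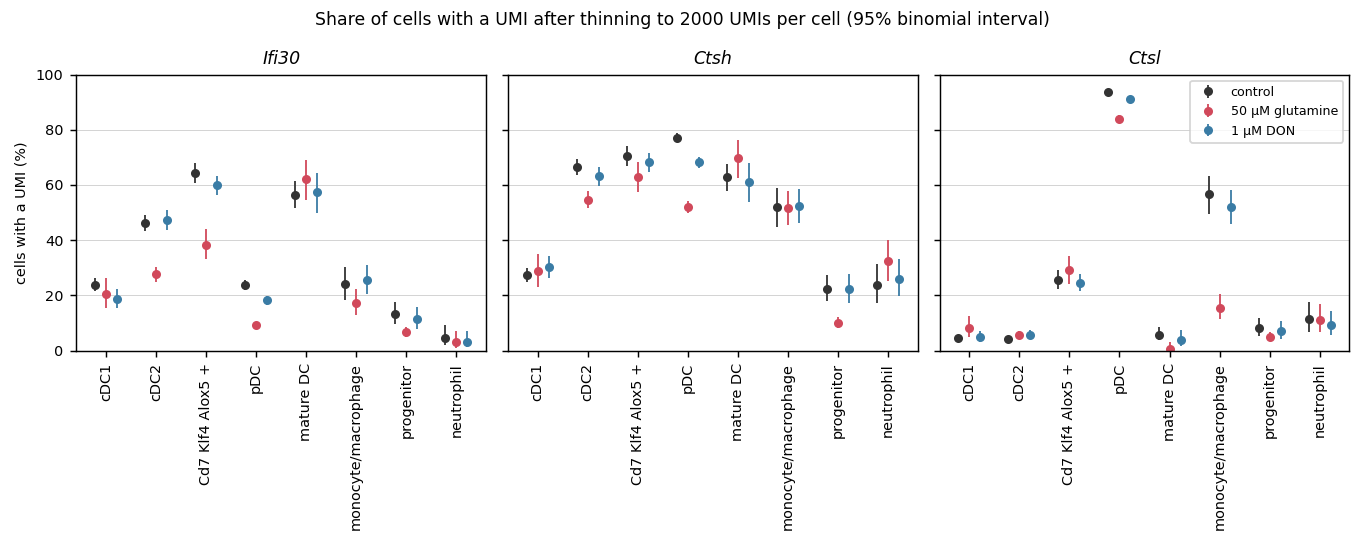
Share of cells with a UMI of Ifi30, Ctsh or Ctsl after thinning to 2000 UMIs per cell, in percent, by cell gate, with 95% binomial intervals and 1 point per library. For Ifi30 the 50 µM share is below both other libraries in cDC2, pDC and the Cd7, Klf4 and Alox5 gate, but not in mature cells, where it is 62.1%.

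Other genes of the path were taken from 8 lists. The MHC class II list holds 12 genes of at least 20 CPM in cDC2, of which 8 were lower and none higher at 50 µM, beside 1.73% lower and 5.94% higher among all genes, with a list median of -0.75 beside 0.15 for all genes. H2-Ob, a subunit of the DM inhibitor, was 77.4 CPM in control, 31.7 at 50 µM and 48.5 with DON, and H2-DMb2, a subunit of the peptide exchanger, 154, 73.3 and 96.8 CPM. The class II chain gene H2-Eb1 was 3973 CPM in control and 2085 at 50 µM. In pDC 6 of 11 genes of the list were lower at 50 µM, beside 3.33% of all genes, and 6 of 11 with DON, beside 0.736%, with medians of -0.67 and -0.63. There H2-Eb1 was 562 CPM in control, 245 at 50 µM and 310.1 with DON, and the chain genes H2-Ab1 and H2-Aa were 911 and 1268 CPM in control and 497 and 747 with DON. In pDC at 50 µM Cd74, which encodes the invariant chain, was 4301 CPM in control and 1946 at 50 µM, and H2-Oa 56.0 and 20.2 CPM. In cDC1 1 of 12 genes was lower with each treatment, H2-DMb2 at 50 µM (42.6 and 20.6 CPM) and H2-Eb1 with DON (3954 and 2470 CPM).

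Of the other lysosomal lists few genes passed the limit in cDC1, cDC2 and pDC, and single genes of a list are near the share of all genes. At 50 µM that share was 1.26% lower and 3.84% higher in cDC1, 1.73% and 5.94% in cDC2, and 3.33% and 9.62% in pDC. Of 17 lysosomal hydrolases measured in cDC2 at 50 µM, 2 were lower, among them Plbd1 (101 and 34.6 CPM), a phospholipase-like protein, with a list median of 0.07. In cDC1 Plbd1 was the 1 of 16 lower, at 651 and 411 CPM. Of the membrane and activator list, Npc1, the cholesterol exporter, was higher in cDC1 (21.9 and 36.8 CPM, 1 of 14) and Cd68 lower in pDC (111 and 55.0 CPM, 1 of 14). Of the proton pump list, Tcirg1 was higher in cDC2 (28.1 and 49.1 CPM, 1 of 17). Cst7, which encodes cystatin F, an inhibitor found inside lysosomes, was higher at 50 µM in cDC2 (17.1 and 38.9 CPM) and in pDC (8.11 and 28.2 CPM). It was 1 of 2 inhibitors measured in each of these gates. In both it reached the minimum of 20 CPM only through the 50 µM library, where it was high, so these counts support nothing. No gene of the lists of other cathepsins, lysosomal sorting and the TFEB family passed the limit in cDC1, cDC2 or pDC. In pDC at 50 µM the list medians were -0.53 for 3 other cathepsins, -0.28 for 18 hydrolases and -0.19 for 14 membrane genes. All genes there had a median of 0.15. The proton pump, sorting, TFEB and inhibitor lists had medians of 5.9e-05, 0.16, 0.29 and 0.53. The part of cycling cells in these medians was not tested. In monocytes or macrophages at 50 µM 11 of 31 hydrolases and 6 of 17 membrane genes were lower, beside 8.09% of all genes, and none higher, beside 5.24%, in the gate whose share of cells with a C1q UMI was lower.

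As a description, each gene's profile over 28 combinations of gate and library was compared with 5628 other genes by Pearson's r of log2 CPM. The profiles share gates, libraries and depth, so no p is given. The nearest to Ctsl were Pltp (0.95), Gnas (0.92) and Lair1 (0.89), and to Ctsd Cebpb (0.96), Cd300lb (0.94) and Mindy1 (0.93). Nav1 (0.96) and Tspan33 (0.93) were among the 3 nearest to Cst3, and those nearest to Ctsz were Leprot (0.95), Scpep1 (0.93) and Usp18 (0.91). Ctsb was nearest to Laptm4a (0.92), Psap (0.90) and Man1c1 (0.88), the first a lysosomal membrane protein and the second the precursor of saposins. Ctss was nearest to Dtx3l, Parp14 and Prcp (0.92, 0.92 and 0.91), Lgmn to Tmem106a, Abhd12 and Twf1 (0.90, 0.88 and 0.87), Ctsh to Gngt2, Hist3h2a and Stx8 (0.89, 0.89 and 0.84), and Ifi30 to Cytip, Stat5a and Vhl (0.86, 0.85 and 0.85). Among the 9 genes the closest pairs were Ctss with Ctsz (0.89), Ctss with Lgmn, Ctss with Ctsh and Ctsl with Ctsb (0.82 each), and the farthest were Ctsd with Cst3 (-0.48) and Ctsd with Ifi30 (-0.44).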

How the data were processed

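For each of the 3 libraries the authors deposited a matrix of UMI counts, 1 row per gene and 1 column per barcode, not normalised and holding only barcodes called as cells. Version 6.0.0 of cellranger is named per the file headers. Version 3.1.0, with mm10, is named per the submitters' processing notes, so the version is not settled. Gene positions are from GENCODE vM21 (GRCm38), which holds 99.8% of the identifiers. It lists Ifi30 as a processed transcript, and Ctsb overlaps Fdft1, and Ctsz Nelfcd, on the opposite strand.

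Cells kept had 1000 UMIs and 500 genes or more, and no more than 10% of UMIs from mitochondria. Doublets were removed by the Scrublet method, written out here, at a score of 0.25 in each library (6.69% of control, 4.49% of 50 µM and 4.93% of DON cells), since the automatic threshold had failed with DON. This left 9673, 9216 and 8449 cells, with medians per library after the filters of 6890 to 8145 UMIs. Of simulated doublets, 52.8% in control, 46.7% at 50 µM and 46.7% with DON scored above 0.25, so doublets may remain among the kept cells. The marker UMI cuts of the gates were set after the marker UMIs were seen. For each gate UMIs were summed per library and scaled to CPM, with exact Poisson 95% intervals. Shares have Clopper-Pearson 95% intervals. Both cover counting error only. No p-value compares treatments, because there is 1 library per group. Gates were compared with edgeR 4.0.16 (quasi-likelihood, TMM, filterByExpr, library as a block, since both gates of a library share a culture, threshold 0.05), and with DESeq2 1.42.0 as an alternative. The test and the ratio rule were tested on simulated data.

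The 9 genes, the gene lists and the markers were chosen with earlier results of these data known. The named genes are the 9, from each list up to 3 with the largest ratio among those at least 1.5 times apart in cDC1, cDC2 or pDC, and for each of the 9 the 3 with the most similar profile among genes of at least 50 CPM, leaving out gate markers. A few genes that meet this rule are not reported here. Profiles use gates of at least 50 cells.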

Additional observations from a re-analysis of the deposited data

Results flagged for a closer look

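Ctsd at 50 µM glutamine stands out because its ratios to control had opposite directions in 2 gates, each at least 1.5 times apart. The log2 ratio was 0.85 in cDC2 and -1.53 in monocytes or macrophages. The difference between the gates was not tested, since there is 1 library per group. The ratio was 0.48 in cDC2 with a Cd209a UMI and 0.75 in those without. It was -0.68 in monocytes or macrophages with a C1q UMI and -0.21 in those without.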

How the results depend on the processing

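Each ratio was recomputed under 12 alternatives (scaling, pseudocount, minimum level, cell filters, doublets, thinning, gates, cycling cells), and each comparison of gates under 9. The 50 µM calls of Ifi30 held under all 12 in cDC2 (log2 ratio -1.13 to -0.92), pDC (-1.66 to -1.49), progenitors (-2.73 to -1.05) and the Cd7, Klf4 and Alox5 gate (-1.40 to -1.04). So did those of Cst3 (-1.18 to -0.95) and Ctsd (0.70 to 1.25) in cDC2 and of Ctsh in pDC (-1.18 to -0.68). In monocytes or macrophages Ifi30 fell short with a stricter gate (-0.57). Median-of-ratios scaling moved the median of all genes at 50 µM by -0.13 in cDC2, -0.12 in pDC and -0.11 in the Cd7, Klf4 and Alox5 gate.

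Counts of the 9 genes moved by over 1.5 times (in pDC also by less) as follows, and the cause was not tested. In cDC1 at 50 µM, 0 became 2 higher with a pseudocount of 1 CPM, 1 with a total without mitochondrial, ribosomal and the 9 genes and 1 when thinned, and 0 became 1 lower with a stricter gate. In cDC2 the 1 higher at 50 µM became 2 with that pseudocount, thinned, from 3000 UMIs, with a stricter gate and with a gate without 5 cDC1 markers, and 0 among cells with a Cd209a UMI, and with DON 0 became 1 when thinned. In pDC 5 lower became 2 with per-cell means, thinned, with a stricter gate and without cycling cells, 7 with median-of-ratios scaling and 6 with at most 5% mitochondrial UMIs. In mature cells 0 higher at 50 µM became 1 with the pseudocount, 2 thinned and 1 with doublets kept, and 1 with DON became 2 with per-cell means, doublets kept, a stricter gate or no cycling cells. In monocytes or macrophages without a C1q UMI 6 lower became 2 at 50 µM, with Ctsb at 0.0047, and 0 became 1, Ctsl, with DON. In progenitors 2 lower at 50 µM became 6 thinned and 5 without cycling cells, and 0 with DON became 1 thinned.

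Between gates, 1 higher in cDC1 over pDC became 2 with no filter (1 to 2 leaving out a library: 2 without control). Without the library block, which pairs the gates of a culture, 4 higher in cDC2 over pDC became 2 and 1 lower in mature cells over cDC2 became 0. The 3 lower in cDC2 over pDC ranged from 2 to 5 leaving out a library, with Ctsh from -0.23 to 0.10. The 1 lower in mature cells became 0 with DESeq2, 2 with no filter, 3 without cycling cells and 3 scaled to total UMIs, where Ctsl was at -0.10, and ranged from 0 to 1 leaving out a library, with Ctss from -0.093 to 0.027 and Ctsl from -0.020 to 0.73. The splits by C1q, by Cd209a and the scaling to total UMIs were chosen after seeing the data.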

Other observations

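Over all kept cells of a library together, Ifi30 was 269 CPM in the control library, 93.4 CPM in that of 50 µM glutamine and 236 CPM in that of DON, Cst3 8747, 3157 and 5634 CPM, and Ctsd 113, 117 and 142 CPM. The cDC1 gate made up 13.6%, 2.496% and 6.44% of these cells and the progenitor gate 3.20%, 8.91% and 3.21%, so that these whole-culture values hold different mixtures of cells.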
